A study of Homo sapiens with 4 samples.

Results

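MKI67, TOP2A and 7 genes of the condensin complexes (SMC2, SMC4, NCAPD2, NCAPG, NCAPH, NCAPD3 and NCAPG2) encode proteins that shape and coat chromosomes in mitosis. They were taken by matching Ensembl identifiers to these symbols, and were 9 of the 27629 genes listed in at least 1 of the 4 deposited tables. All 9 were listed in all 4 tables and passed the filter on low values in each comparison. The genes were selected on their function and with their measured CPM and changes against control siRNA in these libraries already known, so the changes below are descriptions of 4 libraries and carry no test.

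The RNA-seq libraries came from cultures of the established human bladder cancer line UM-UC-3, collected 48 h after transfection with 75 nM siRNA. The 4 libraries, 1 per condition, were control siRNA, si-hnRNPK (a mixture of 2 siRNAs against the RNA-binding protein hnRNPK), si-lncRNA-LBCS (2 siRNAs) and si-PTBP1 (2 siRNAs against the splicing regulator PTBP1). Total RNA was extracted, and the libraries made from it were sequenced as 100-base paired-end reads. The deposited unit was CPM, the reads of a gene scaled to a total common to all libraries. With 1 library per condition, the spread between cultures is unknown for every value, and the 3 comparisons share the control library.

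Chromosomes are compacted at mitosis by condensins, ring-shaped complexes that extrude loops of DNA. Condensin I and condensin II share the ATPase pair SMC2 and SMC4, and differ in the kleisin that closes the ring and the HEAT-repeat subunits bound to it: NCAPH with NCAPG and NCAPD2 in condensin I, and NCAPH2 with NCAPG2 and NCAPD3 in condensin II. Topoisomerase II alpha, the product of TOP2A, cuts and rejoins both strands of DNA to disentangle sister chromatids. Ki-67, the product of MKI67, coats mitotic chromosomes and keeps them apart, and it is the usual histological marker of cycling cells. Their mRNAs belong to the group that accumulates towards mitosis, and many promoters of that group carry a cell cycle homology region (CHR) and CCAAT boxes.

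The promoters of 5 of the genes are shown because these genes were lower together in si-hnRNPK. They are MKI67, which changed most, TOP2A, the condensin I genes NCAPD2 and NCAPG, and NCAPG2, which was lower only in si-hnRNPK. Each sequence is from RefSeq on GRCh38.p14, runs 5′ to 3′ in the direction of transcription, and holds 250 bases before and 50 bases from the start of the transcript. Capitals mark matches on either strand to the CHR (TTTGAA or TTTAAA), the CCAAT box (CCAAT, or ATTGG on the other strand) and an E2F form (TTTNNCGC, or GCGNNAAA on the other strand).
MKI67 promoter, chr10:128126374-128126673, strand -: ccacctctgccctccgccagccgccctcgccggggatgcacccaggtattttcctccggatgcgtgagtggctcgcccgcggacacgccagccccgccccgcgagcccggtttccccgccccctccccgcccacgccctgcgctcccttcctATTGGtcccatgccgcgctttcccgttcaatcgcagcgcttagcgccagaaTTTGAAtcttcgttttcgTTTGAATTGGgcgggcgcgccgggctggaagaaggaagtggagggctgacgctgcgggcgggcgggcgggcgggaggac
TOP2A promoter, chr17:40417847-40418146, strand -: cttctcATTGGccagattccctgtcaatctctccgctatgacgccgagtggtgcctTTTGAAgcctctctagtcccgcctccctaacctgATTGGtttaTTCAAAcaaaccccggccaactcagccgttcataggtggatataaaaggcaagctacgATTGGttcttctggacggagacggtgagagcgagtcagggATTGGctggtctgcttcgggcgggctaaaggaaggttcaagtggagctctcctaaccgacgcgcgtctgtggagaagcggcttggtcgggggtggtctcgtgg
NCAPD2 promoter, chr12:6493852-6494151, strand +: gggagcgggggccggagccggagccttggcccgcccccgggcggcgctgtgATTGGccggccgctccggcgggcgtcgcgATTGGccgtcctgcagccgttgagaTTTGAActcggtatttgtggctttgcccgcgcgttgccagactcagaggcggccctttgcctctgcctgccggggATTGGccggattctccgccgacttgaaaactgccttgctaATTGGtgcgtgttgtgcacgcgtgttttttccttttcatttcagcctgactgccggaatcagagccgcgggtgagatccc
NCAPG promoter, chr4:17810729-17811028, strand +: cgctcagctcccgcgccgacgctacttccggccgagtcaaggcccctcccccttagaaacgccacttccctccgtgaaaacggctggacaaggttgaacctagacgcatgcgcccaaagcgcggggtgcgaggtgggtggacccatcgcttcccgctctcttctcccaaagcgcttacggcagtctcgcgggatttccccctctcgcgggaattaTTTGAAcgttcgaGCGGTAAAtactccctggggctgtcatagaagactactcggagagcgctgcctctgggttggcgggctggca
NCAPG2 promoter, chr7:158704755-158705054, strand -: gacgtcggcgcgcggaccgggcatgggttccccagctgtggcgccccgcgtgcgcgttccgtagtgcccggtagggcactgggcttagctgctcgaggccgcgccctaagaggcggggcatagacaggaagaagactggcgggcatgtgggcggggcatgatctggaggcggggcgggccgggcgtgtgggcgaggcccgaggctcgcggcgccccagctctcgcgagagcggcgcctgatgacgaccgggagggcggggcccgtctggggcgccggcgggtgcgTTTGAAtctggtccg

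At least 1 promoter of each of the 9 genes held a CHR, and 9 of their 12 annotated promoters did, against 24.0% of 35116 promoters of the same length. A CCAAT box stood in 5 of the 12 promoters (MKI67, TOP2A, NCAPD2, NCAPH and 1 of NCAPD3), a share close to the 34.6% of all promoters. The same 5 promoters held both motifs, which 9.27% of all promoters did. The E2F form was found in 2 of the 12, of NCAPG and NCAPD3, against 6.89% of all promoters. A match is a run of letters and not a measured binding site.

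The MKI67 promoter held 2 CHR matches, whose first bases lay at -47 and -29 from the start, and 2 CCAAT matches at -98 and -24. The last base of its CHR at -29 is also the first base of the CCAAT match at -24. TOP2A held 2 CHR matches at -194 and -151 and 4 CCAAT matches. NCAPD2 also held 4 CCAAT matches, with 1 CHR at -145. In NCAPG the CHR at -35 was followed by the E2F form at -22, and no CCAAT was found. The CHR of NCAPH and NCAPG2 lay inside the transcript, at 33 and 36 bases from the start.

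**Figure D1:**
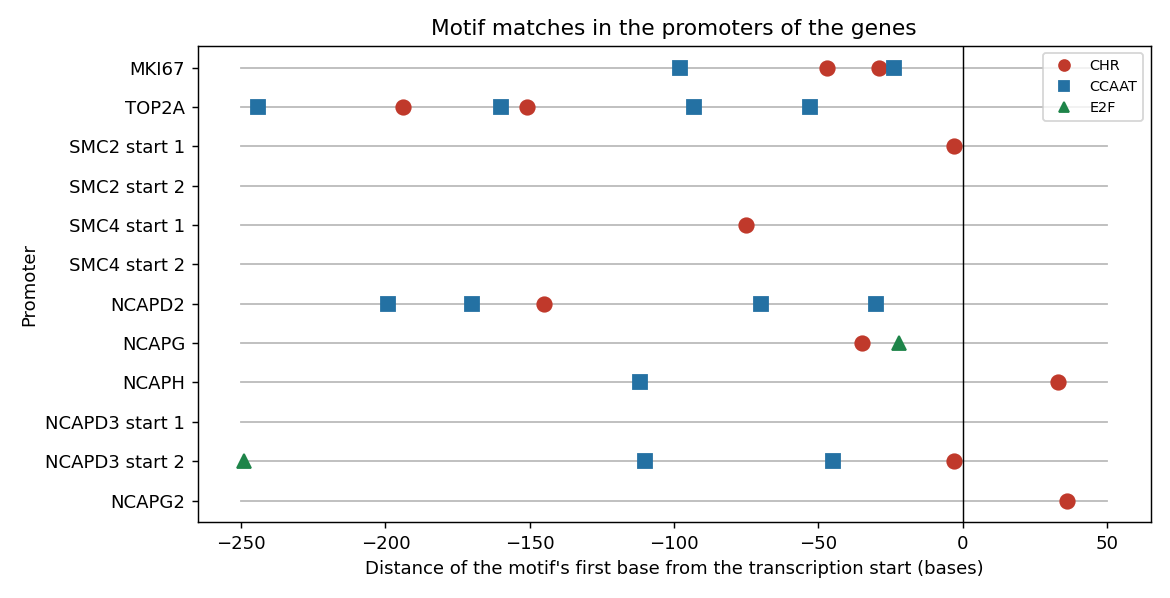
Position of the first base of each motif match (horizontal axis, bases from the transcription start) in the 12 RefSeq promoters of the 9 genes (vertical axis), with circles for CHR, squares for CCAAT and triangles for the E2F form. A CHR appears on 9 of the 12 lines, and TOP2A and NCAPD2 each carry 4 CCAAT matches.

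The libraries held 54301152 to 70232674 reads on listed genes, so that 1 read was worth 0.0142 to 0.0184 CPM. HNRNPK was at 24.0% of its control level in si-hnRNPK, and PTBP1 was at 32.0% of its control level in si-PTBP1. LNC-LBCS, the target of the third knockdown, had 81.8% of its control level in its own library, with an interval of 61.9 to 108.0%. Its knockdown against control was thus not detectable at this depth, and that library is given here by its label. LNC-LBCS was low in all libraries, at 1.47 CPM in its own, 1.79 CPM in control, 3.43 CPM in si-hnRNPK and 3.82 CPM in si-PTBP1. GAPDH differed from control by 0.18, -0.12 and -0.17 in si-hnRNPK, the si-lncRNA-LBCS-labelled library and si-PTBP1, as differences in log2(CPM + 1). Of 10 epithelial or urothelial markers, 4 reached 1 CPM in each library: KRT8 (63.0 to 94.8 CPM), KRT18 (75.2 to 121.4 CPM), and KRT7 and PPARG at lower levels. GATA3, UPK2 and KRT19 stayed under 1 CPM, and CDH1 and UPK3A were not listed. All 4 mesenchymal markers reached 1 CPM in each library. Summed markers of leukocytes (0.356 to 2.89 CPM), fibroblasts or stroma (3.26 to 7.99 CPM) and endothelium (0.0652 to 0.166 CPM) were low in every library.

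A change is given as the difference in log2(CPM + 1) between a knockdown library and control, for genes at 1 CPM or more in either library, with a threshold of 1. Each interval of a ratio between libraries is a 95% exact (Clopper-Pearson) interval from the reads of both libraries and covers counting error only. All 9 genes were at their lowest of the 4 libraries in si-hnRNPK. Of all genes, 58.4% were below control there, and the share at their lowest in si-hnRNPK was not counted. Of the 9, 7 were down-regulated past the threshold there, where 3.93% of 13672 genes were. SMC2 and NCAPD3 were lower by less than the threshold. No member was up past it, where 3.55% of all genes were. The median of the 9 changes was -1.20, and the median of all genes was -0.11. In the si-lncRNA-LBCS-labelled library only MKI67 passed the threshold downwards, against 1.01% of 13492 genes, and none upwards, against 0.378%. There the median of the 9 was -0.17 beside -0.01 for all genes. No member passed it in si-PTBP1, where 0.613% of 13855 genes were down and 2.92% were up by as much, and the median was -0.22 beside 0.12. Since whole cultures were sequenced, fewer cells near mitosis and less of these mRNAs per cell cannot be told apart.

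**Figure D2:**
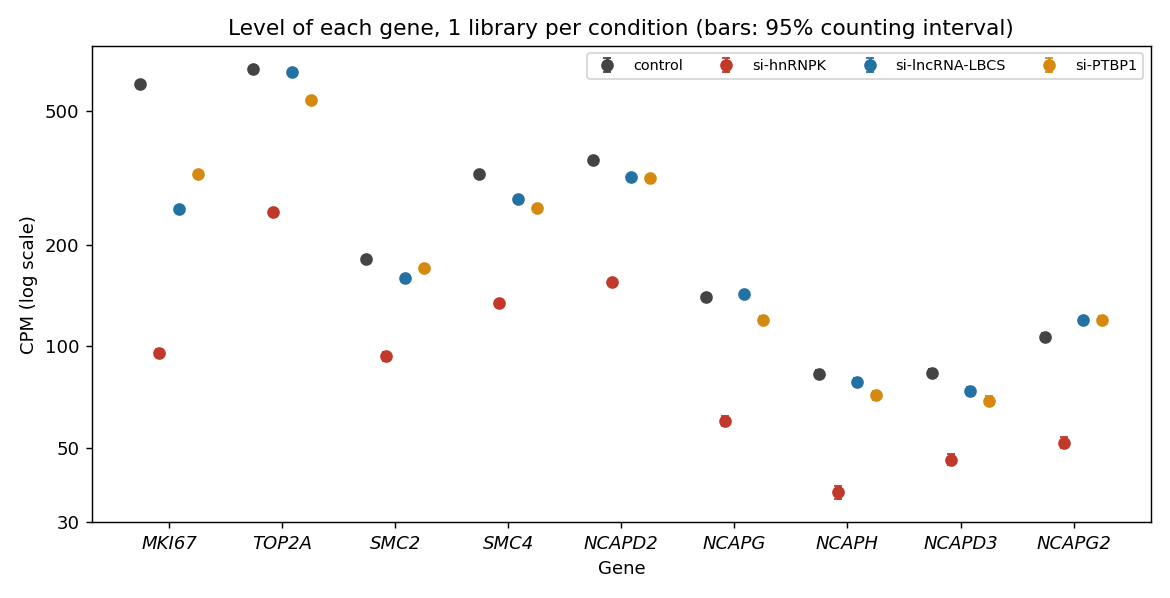
Level of each of the 9 genes (horizontal axis) as CPM on a log axis (vertical axis) in the control, si-hnRNPK, si-lncRNA-LBCS and si-PTBP1 libraries, 1 point per library, with 95% counting intervals that are mostly smaller than the points. The si-hnRNPK point is the lowest for every gene, and MKI67 is the only gene whose other 2 knockdown points also lie far under the control point.

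MKI67 changed most of the 9 genes in each of the 3 comparisons. Its level was 601.1 CPM in control, 95.2 CPM in si-hnRNPK, 255.5 CPM in the si-lncRNA-LBCS-labelled library and 325.8 CPM in si-PTBP1, from 36894, 5170, 17946 and 18269 reads. All 3 knockdown libraries were well under control, in the order si-PTBP1, si-lncRNA-LBCS and si-hnRNPK, and the interval of the ratio of each pair of neighbours in that order excluded 1.

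In si-hnRNPK, MKI67 was at 15.8% of control (interval 15.4 to 16.3%), a change of -2.65. It ranked 2 of 13672 genes by the size of its fall on the log2(CPM + 1) scale. The 1 gene ahead of it was ENSG00000184779, which had no symbol in the name table and is named here after its value was seen. In the si-lncRNA-LBCS-labelled library it was at 42.5% of control (41.8 to 43.3%), a change of -1.23 and rank 73 of 13492. In si-PTBP1 it was at 54.2% (53.2 to 55.2%), a change of -0.88 and rank 137 of 13855. The si-PTBP1 change stayed short of the threshold on the deposited scale and reached -1.01 under median-of-ratios scaling. The ranks are on log2(CPM + 1), which makes the changes of low genes too small. The lowest genes could not reach -2.65 on it. Ranks on plain ratios were not taken.

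The distance between MKI67 and the other 8 genes was wider than the counting error in every comparison. The log2 ratio to control of MKI67 minus that of each other gene lay between -1.80 (NCAPD3) and -1.25 (TOP2A) in si-hnRNPK. It lay between -1.40 (NCAPG2) and -0.99 (SMC4) in the si-lncRNA-LBCS-labelled library, and between -1.05 (NCAPG2) and -0.55 (SMC4) in si-PTBP1. None of the 24 intervals included 0. The intervals of a library share the reads of MKI67, which was already known to have changed most, so they are not separate results. Counting intervals are narrow at this depth, and the share of other gene pairs with such an interval was not counted. A difference within a library does not depend on how the libraries are scaled against each other.

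MKI67 has the longest transcript of the 9, at 12678 bases on chromosome 10 (128096659 to 128126385, minus strand, GRCh38). Genes with transcripts of 10000 to 15000 bases had a median change of -0.27 in si-hnRNPK, -0.11 in the si-lncRNA-LBCS-labelled library and 0.19 in si-PTBP1. With these medians taken away, MKI67 changed by -2.38, -1.12 and -1.07. Its longest annotated 3′ UTR held 1 match to the seed (guide bases 2 to 8) of each of the 2 PTBP1 siRNAs. Of the genes with an annotated 3′ UTR, 13.1% and 15.1% held such a match. No match to the seeds of the hnRNPK or lncRNA-LBCS siRNAs was found there. The part of these matches in the si-PTBP1 value was not tested.

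TOP2A was at 667.0 CPM in control, 250.9 CPM in si-hnRNPK, 655.1 CPM in the si-lncRNA-LBCS-labelled library and 538.2 CPM in si-PTBP1. Its only large difference was in si-hnRNPK, at 37.6% of control (36.9 to 38.4%), a change of -1.41 and the second in size among the 9. The si-lncRNA-LBCS level was 98.2% of control (96.9 to 99.5%), a change of -0.03 where MKI67 changed by -1.23. The si-PTBP1 level was 80.7% of control (79.5 to 81.9%), a change of -0.31. TOP2A mRNA per kilobase was 2.44 times that of MKI67 in control, and 5.80, 5.65 and 3.64 times in si-hnRNPK, the si-lncRNA-LBCS-labelled library and si-PTBP1.

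**Figure D3:**
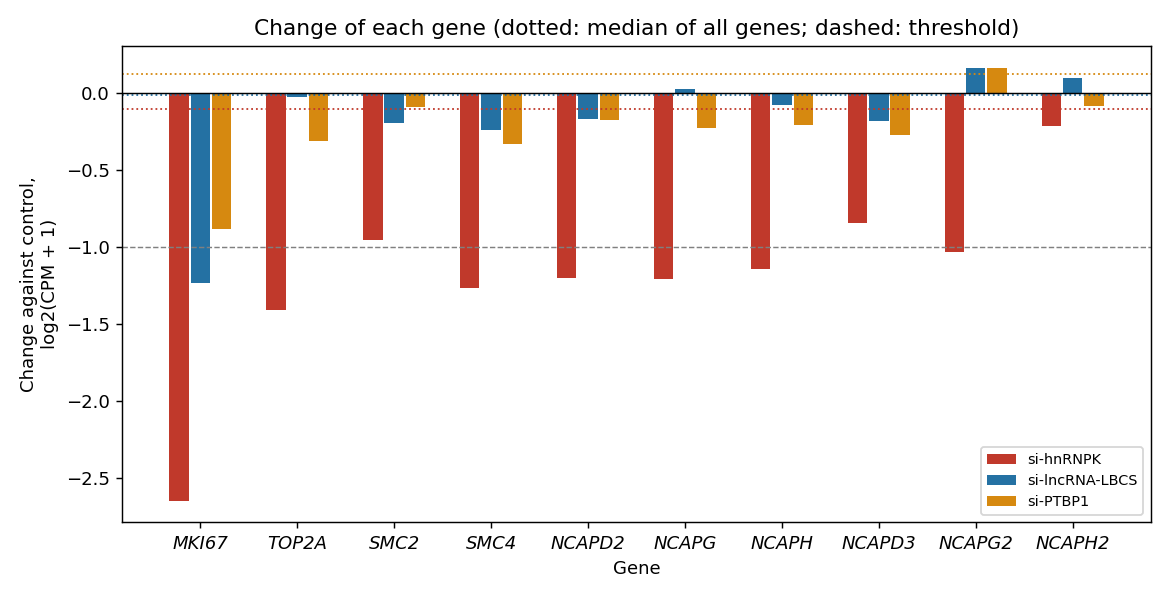
Change against control as the difference in log2(CPM + 1) (vertical axis) for the 9 genes and NCAPH2 (horizontal axis), with 1 bar per knockdown library, dotted lines at the median of all genes in the same colours and a dashed line at the threshold of -1. MKI67 has the longest bar of each colour, the other 8 genes lie between -1.41 and -0.84 in si-hnRNPK, and NCAPH2 is at -0.21.

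The shared core of condensins is the SMC2 and SMC4 pair, which bind to each other at their hinges and hydrolyse ATP. SMC4 was at 324.0 CPM in control, 134.5 CPM in si-hnRNPK, 274.2 CPM in the si-lncRNA-LBCS-labelled library and 257.5 CPM in si-PTBP1. The si-hnRNPK level was 41.5% of control (40.4 to 42.6%), a change of -1.26, and the other 2 changes were -0.24 and -0.33. SMC2 was at 181.7, 93.3, 159.0 and 170.5 CPM in the same order. Its si-hnRNPK level was 51.3% of control (49.7 to 53.1%), a change of -0.95 that fell just short of the threshold. It differed little in si-PTBP1, at 93.8% of control (91.3 to 96.4%). SMC4 was therefore lower than SMC2 relative to control, and SMC4 over SMC2 per kilobase was 1.95 in control and 1.58 in si-hnRNPK. That ratio was 1.36 and 1.10 when all annotated exons gave the lengths.

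All 3 subunits that belong to condensin I alone passed the threshold in si-hnRNPK, and their changes spanned -1.21 to -1.14. NCAPD2, a HEAT-repeat subunit, was at 356.7 CPM in control, 155.0 CPM in si-hnRNPK, 317.7 CPM in the si-lncRNA-LBCS-labelled library and 315.4 CPM in si-PTBP1. It was at 43.4% of control in si-hnRNPK (42.4 to 44.6%), and the other 2 knockdown libraries differed from each other by less than the counting error, with a ratio of 1.01 (0.987 to 1.03). NCAPG, the other HEAT-repeat subunit, was at 140.2, 60.0, 142.7 and 119.8 CPM, which is 42.8% of control in si-hnRNPK (41.1 to 44.6%). Its levels in control and the si-lncRNA-LBCS-labelled library could not be told apart at this depth, at 101.8% of control (98.9 to 104.8%). NCAPH, the kleisin that closes the ring, was at 82.5, 36.8, 78.3 and 71.5 CPM, with 44.6% of control in si-hnRNPK (42.4 to 47.0%). In si-PTBP1 the 3 genes lay between 85.5% and 88.4% of control.

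The condensin II subunits were less alike. NCAPD3, a HEAT-repeat subunit, was at 83.5 CPM in control, 46.0 CPM in si-hnRNPK, 73.5 CPM in the si-lncRNA-LBCS-labelled library and 69.0 CPM in si-PTBP1. Its si-hnRNPK change of -0.84 was the smallest of the 9, at 55.1% of control (52.5 to 57.9%). NCAPG2, the other HEAT-repeat subunit, was at 106.7, 51.8, 119.9 and 119.9 CPM. It passed the threshold in si-hnRNPK by little, with a change of -1.03, and was at -0.92 under median-of-ratios scaling. NCAPG2 was also the 1 gene of the 9 that was above control beyond counting error in the other 2 knockdown libraries, at 112.3% in each (108.7 to 116.0% and 108.5 to 116.2%). In si-PTBP1 its change of 0.17 was close to the median of all genes, 0.12.

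NCAPH2, the condensin II kleisin, was not among the 9 genes and was compared with them as the remaining subunit. It was at 57.3 CPM in control, 49.2 CPM in si-hnRNPK, 61.4 CPM in the si-lncRNA-LBCS-labelled library and 54.1 CPM in si-PTBP1. The si-hnRNPK change was -0.21, or 85.9% of control (81.7 to 90.4%), above all 9 genes and near the median of all genes of -0.11.

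Levels of different subunits can be compared only per length, here as CPM per kilobase of the longest coding transcript in GENCODE release 29. In control TOP2A was at 115.8, MKI67 at 47.4, SMC4 at 59.2 and SMC2 at 30.3 CPM per kilobase. In condensin I, NCAPD2 was at 64.3, NCAPG at 30.1 and NCAPH at 28.0 CPM per kilobase. In condensin II, NCAPH2 was at 27.6, NCAPG2 at 20.3 and NCAPD3 at 16.5 CPM per kilobase. The kleisins of both complexes were thus at near equal mRNA levels in control, with NCAPH over NCAPH2 at 1.01. That ratio was 0.527 in si-hnRNPK, 0.896 in the si-lncRNA-LBCS-labelled library and 0.930 in si-PTBP1. With the exons of all transcripts as the length, it was 1.39 in control and 0.722 in si-hnRNPK.

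The summed level of the 3 condensin I subunits was 1.90 times that of the 3 condensin II subunits in control. The ratio of these sums was 1.25 in si-hnRNPK, and 1.71 in each of the other 2 knockdown libraries. With the exons of all transcripts as the length, it was 2.55 in control, 1.69 in si-hnRNPK, 2.28 in the si-lncRNA-LBCS-labelled library and 2.27 in si-PTBP1. The size of each ratio therefore moved with the choice of length, and si-hnRNPK was the lowest library under either. These are mRNA levels, and protein was not measured in these files.

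**Figure D4:**
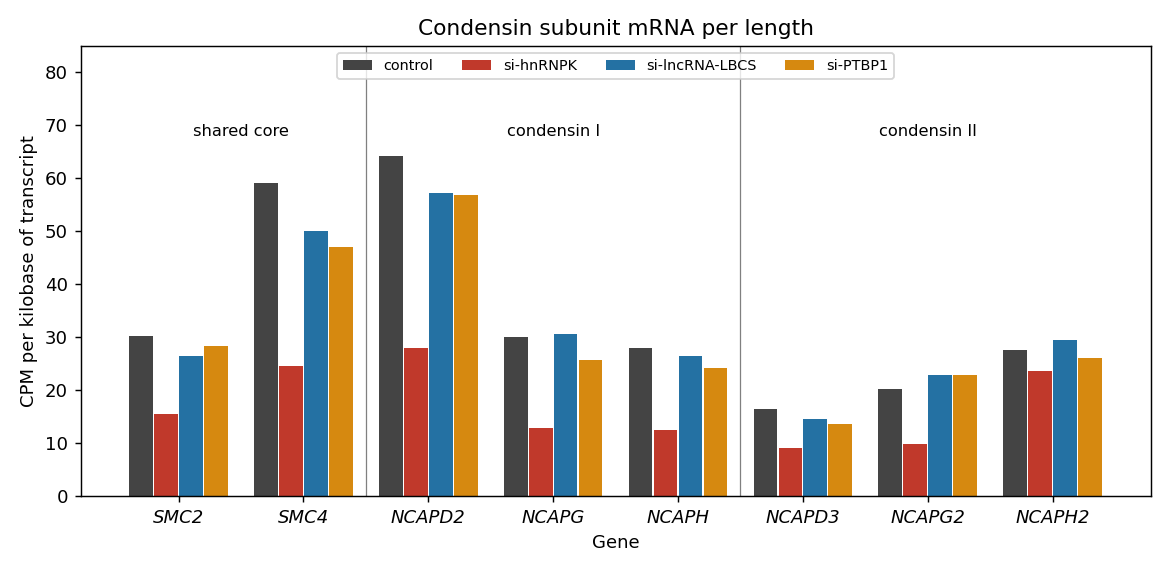
CPM per kilobase of the longest coding transcript (vertical axis, from 0) for the 8 condensin subunits (horizontal axis, grouped as shared core, condensin I and condensin II), with 1 bar per library. The si-hnRNPK bar is the lowest of each group of 4, and for NCAPH2 it stands at 23.7 beside 27.6 in control.

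The si-hnRNPK values can also be set against the other 2 knockdown libraries, without the control library. MKI67 in si-hnRNPK was 0.373 times its level in the si-lncRNA-LBCS-labelled library (0.361 to 0.384) and 0.292 times its level in si-PTBP1 (0.283 to 0.301). For TOP2A the ratios were 0.383 and 0.466, nearly the same as MKI67 against the first library and less extreme than MKI67 against the second. Among the condensin genes the ratios lay between 0.421 (NCAPG) and 0.626 (NCAPD3) against the first library, and between 0.432 (NCAPG2) and 0.668 (NCAPD3) against the second. The interval was below 1 for all 9 genes against each library. Counting intervals are narrow at this depth, and the share of all genes with such an interval was not counted. As differences in log2(CPM + 1), the 9 genes lay between -1.41 and -0.66 against the first library, where the median of all genes was -0.09. Against the second they lay between -1.76 and -0.57, with a median of all genes of -0.24.

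Of the 5 genes whose changes over the 3 comparisons lay nearest to those of MKI67, none came closer than a distance of 0.68 on the log2(CPM + 1) scale. This scale makes the changes of low genes too small. The nearest gene, SLC4A8, was low, at 11.3 CPM in control and 2.01 CPM in si-hnRNPK, so part of its distance comes from the scale. Among them were SLC4A8, a bicarbonate transporter (0.68), FOSL1, a subunit of AP-1 (0.97), CCND1, which encodes cyclin D1 (0.99), and UNC13A, a factor of vesicle priming (1.01). CCND1 was at 1187 CPM in control, 295.2 CPM in si-hnRNPK, 678.4 CPM in the si-lncRNA-LBCS-labelled library and 990.7 CPM in si-PTBP1. Around TOP2A the distances on this scale were far shorter, from 0.096 to 0.14. The distances around MKI67 and TOP2A were not compared on plain ratios. The nearest were KIF20A, a mitotic kinesin, CDCA2, which brings protein phosphatase 1 to chromatin, CENPF and KNL1, both of the kinetochore, and SNRNP25, of the minor spliceosome. KIF20A was at 307.2, 108.3, 300.7 and 253.9 CPM in the same order of libraries.

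Other genes of the same processes were taken from lists and are given by their counts in si-hnRNPK. Of all genes there, 58.4% were below 0 and 3.93% were down past the threshold. Of 15 other proliferation markers, 9 passed it downwards, all 15 were below 0 and their median was -1.17, close to the -1.20 of the 9 genes. TYMS, for thymidylate synthesis, changed most (-1.84), and MCM2, of the replicative helicase, least (-0.64). In the si-lncRNA-LBCS-labelled library and in si-PTBP1 none of the 15 passed the threshold, and their medians were -0.16 and -0.36. Few of all genes were down past the threshold there, 1.01% and 0.613%.

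Of 10 partners and regulators of condensin, 2 passed the threshold in si-hnRNPK, with a median of -0.52. These were PLK1 (-1.80), a mitotic kinase, and CDK1 (-1.05), the kinase of mitotic entry. PPP2R1A, a scaffold subunit of protein phosphatase 2A, was the highest at 0.30. Of 17 cohesin genes, whose complex holds sister chromatids together, 5 passed the threshold, all 17 were below 0 and the median was -0.79. Among all genes 58.4% were below 0. The cohesin protector SGO1 (-1.54) and the securin gene PTTG1 (-1.42) changed most, and the subunit STAG2 least (-0.11). The third SMC family complex, SMC5/6, had a median of -0.09 with none of 8 genes past the threshold, and 0.02 under median-of-ratios scaling. SLF1 was its lowest gene at -0.70.

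Of 10 other topoisomerases and genes of their repair, only TOP1 passed the threshold in si-hnRNPK (-1.14), and the median was -0.25. TOP2B, the paralog of TOP2A that non-dividing cells also express, was at 193 CPM in control and 189 CPM in si-hnRNPK, a change of -0.03. Of 13 listed partners of Ki-67 at the chromosome periphery, CDCA2 alone passed the threshold (-1.39), and the median was -0.27. NCL, a nucleolar protein, was at -0.96, and PPP1CC, a catalytic subunit of protein phosphatase 1, at 0.14. The 12 scale reference genes had a median of -0.01 in si-hnRNPK.

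In the si-lncRNA-LBCS-labelled library no gene of these 5 lists passed the threshold, and the list medians lay between -0.19 (cohesin) and 0.11 (SMC5/6). The same was true in si-PTBP1, with medians from -0.27 (chromosome periphery) to 0.16 (SMC5/6). Among the 9 genes, the proliferation markers and these lists, MKI67 was thus the 1 gene past the threshold in the si-lncRNA-LBCS-labelled library, and none was past it in si-PTBP1. Of all genes, 1.01% were down and 0.378% up past the threshold in the first library, and 0.613% down and 2.92% up in the second. The counts of listed genes down lie near these shares. Of the scale reference genes, PGK1, of glycolysis, was past the threshold in si-PTBP1 (-1.38).

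**Figure D5:**
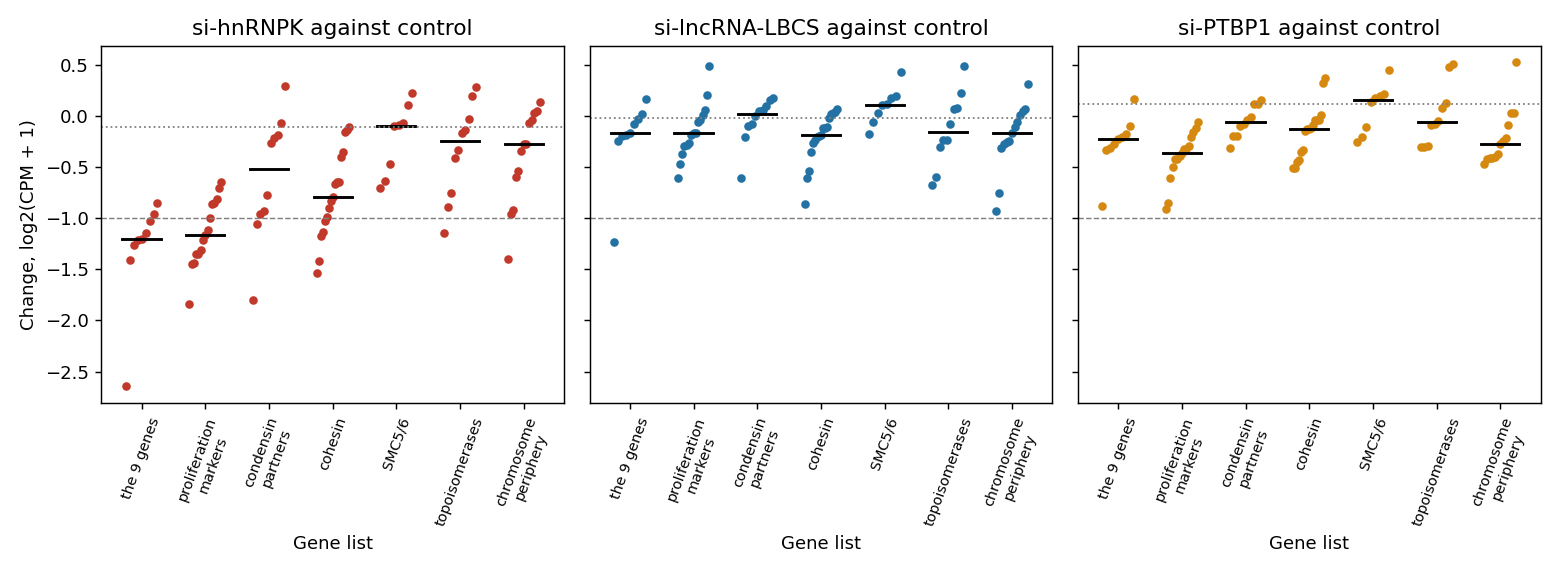
Change against control as the difference in log2(CPM + 1) (vertical axis) for the 9 genes and 6 gene lists (horizontal axis) in 3 panels, 1 per knockdown library, with a point per gene, a black line at each median, a dotted line at the median of all genes and a dashed line at -1. In si-hnRNPK the medians of the 9 genes and of the proliferation markers lie at -1.20 and -1.17, MKI67 is the only point past -1 in the si-lncRNA-LBCS panel, and no point is past it in the si-PTBP1 panel.

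Some reads may not belong to 1 gene alone. SMC4, NCAPD2, NCAPG, NCAPD3 and TOP2A overlap other annotated genes, and whether the counting used strand is not given in the sources used here. MKI67, SMC4, NCAPD2 and NCAPG have annotated pseudogenes, whose reads were not told apart.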

How the data were processed

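RNA-seq of 4 UM-UC-3 libraries (1 per condition) was analysed from 4 gene tables. The authors deposited CPM per Ensembl gene identifier. The submitters' processing notes name hg19, and the aligner, counting method, annotation, filters and strand setting are not given in the sources used here. The values were whole multiples of 1 read for 100% of genes with reads (tolerance 0.01 of a read), which gave the reads behind each value (54301152 to 70232674 per library). Genes without reads carry a placeholder.

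Samples were grouped by their titles. Changes are differences in log2(CPM + 1) (changes of low genes come out too small on it) for genes at 1 CPM or more in either library, with a threshold of 1 and no test. Ratios have 95% exact Clopper-Pearson intervals and levels exact Poisson intervals, which cover counting error only. Reads are not independent molecules. An exact binomial test of the recovered reads with Benjamini-Hochberg adjustment, which compares libraries and not conditions, called 10872, 9479 and 10182 genes at 0.05 in si-hnRNPK, the si-lncRNA-LBCS-labelled library and si-PTBP1.

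The 9 genes and all lists were chosen with earlier results of these data known. Genes outside the 9 are named as a list's largest fall and its largest rise or smallest change in si-hnRNPK, as the 5 nearest to MKI67 or TOP2A by Euclidean distance over the 3 changes (at 10 CPM or more in control; 1 of these is not reported here), or as targets and scale checks. CDK1, NCL and PTTG1 are list members added after their values were seen. Symbols matched 25647 of 27629 identifiers. Transcript lengths, gene positions and 3′ UTRs came from GENCODE release 29 on GRCh38, matched by identifier, and promoters from RefSeq on GRCh38.p14. The alternatives replaced the reference by the geometric mean over control and both other knockdown libraries, the scale by median-of-ratios factors, the threshold by 1.5-fold, the filter by 5 CPM or none and the pseudocount by 0.1, or added the binomial test. A correction for transcript length was chosen after seeing the data. The scripts were tested on simulated data. Calculations ran in Python 3.11.15 with pandas 2.3.3, statsmodels 0.14.6, scipy 1.17.1 and numpy 2.4.6, and plots in matplotlib 3.10.9.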

Additional observations from a re-analysis of the deposited data

How the results depend on the processing

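In si-hnRNPK, all 9 changes stayed below 0 under every alternative that gave each gene a value (pseudocount, median-of-ratios scaling, geometric-mean reference and length correction). Their median there was -1.09 under median-of-ratios scaling, which lost NCAPG2 and left 6 of 7 past the threshold, and -1.08 with the geometric mean over control and both other knockdown libraries as the reference. With that reference, which holds the si-hnRNPK library, the si-lncRNA-LBCS-labelled library had a median of 0.29, with 0 genes past the threshold in place of 1, and si-PTBP1 a median of 0.20. The sign of 6 and 8 genes turned in these libraries. With the same reference, MKI67 was at -1.94 in si-hnRNPK, -0.06 in the si-lncRNA-LBCS-labelled library and 0.41 in si-PTBP1. In si-PTBP1, median-of-ratios scaling gave a median of -0.35. It put 1 gene (MKI67) past the threshold in place of 0, and so did a 1.5-fold threshold and the length correction. The length correction also left NCAPG2 short of the threshold in si-hnRNPK. The pseudocount, both filters and the binomial test left the 3 counts as they were, and the pseudocount and filters kept the direction of each median. These outcomes could hardly differ. All 9 genes were at 36.8 CPM or more in every library, so neither filter could remove one. A pseudocount cannot turn the sign of a change. At the read depth of these genes, a change past the threshold is also beyond counting error. The median-of-ratios factors, which that scaling takes away from each change, were -0.11, -0.01 and 0.13 (si-hnRNPK, si-lncRNA-LBCS and si-PTBP1 minus control). With 1 library per condition, the intervals hold counting error only, and the spread between cultures was not measured. No paired analysis was possible because each condition has 1 library and no replicate number.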
